A study of Mus musculus with 45 samples.

Results

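Guanylate-binding proteins (Gbp) are large GTPases that cells make in response to interferons. The 10 members described here, Gbp2, Gbp2b, Gbp3, Gbp4, Gbp5, Gbp6, Gbp7, Gbp8, Gbp9 and Gbp10, were chosen by name as the mouse genes of the family, out of 50600 gene identifiers, and all 10 were present and passed the filter on low counts in every test. They were followed in RNA sequencing libraries of whole distal colon. The wild-type group, untreated, had 8 libraries. Every other group lacked Il10, which encodes interleukin 10, a cytokine that restrains inflammation, and its loss leads to colitis. In the first cohort 10 knockout libraries came with vehicle, 9 with compound 13 dosed at 30 mg/kg and 7 with the same compound at 10 mg/kg. Compound 13, a code name, blocks the proton-sensing receptor GPR4. The knockout cohort of day 77 consisted of 5 vehicle libraries and 5 in which an antibody to p40 was given. P40 is the subunit that interleukins 12 and 23 have in common. Because no vehicle was given to the wild type, vehicle and deletion cannot be told apart. The labels name no strain, age or sex, and it is not stated that the libraries within a group are from different animals. A p-value here weighs a difference only against the variation from library to library, and that may be technical.

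As background, interferon gamma, a product of T and NK cells, acts on promoters through an element called GAS. Interferon regulatory factors and the complex made by type I interferon bind the element called ISRE. Interleukin 12 drives T and NK cells to make interferon gamma. GBP proteins gather on the membranes of microbes and of the vacuoles around them and help to expose and destroy these compartments. They act beside the immunity-related GTPases, a second interferon-induced family in the mouse, and some members promote the activation of inflammasomes, the complexes that drive cell death by gasdermin D. Gbp2b, Gbp2 and Gbp5 carry a lipid (prenyl) tail that anchors them to membranes.

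The members form 2 clusters in the GENCODE M21 annotation of GRCm38 (mm10). On the plus strand of chromosome 3 lie Gbp5 (ENSMUSG00000105504, chr3:142493978-142522344), Gbp7 (ENSMUSG00000040253, chr3:142530342-142550149), Gbp3 (ENSMUSG00000028268, chr3:142560026-142573209), Gbp2b (ENSMUSG00000040264, chr3:142594847-142619179) and Gbp2 (ENSMUSG00000028270, chr3:142620602-142638008). On the minus strand of chromosome 5 lie Gbp8 (ENSMUSG00000034438, chr5:105014150-105139540), Gbp9 (ENSMUSG00000029298, chr5:105077630-105139539), Gbp4 (ENSMUSG00000079363, chr5:105115767-105139586), Gbp10 (ENSMUSG00000105096, chr5:105215699-105239533) and Gbp6 (ENSMUSG00000104713, chr5:105270702-105293698). All 10 are annotated as protein-coding. The intervals of Gbp8, Gbp9 and Gbp4 overlap one another on the same strand. A further protein-coding model, Gm43302 (chr5:105214907-105293695), spans both Gbp10 and Gbp6.

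Near-identical copies limit how reads can be divided among some members. The longest open reading frame of Gm43302 was 99.89% identical to that of Gbp6 and 98.47% identical to that of Gbp10, and Gbp10 and Gbp6 were 98.37% identical. Of the 50-base windows of the annotated transcripts, 84.07% in Gbp10 and 70.65% in Gbp6 also occurred in another gene, against 18.12% in Gbp8, 12.74% in Gbp7 and 1.44% to 8.05% in the other 6 members. Gbp2 and Gbp2b, at 82.49% identity, shared only 2.03% and 1.84% of their windows. The authors' estimated counts differed from a whole number by more than 0.005 for Gbp6 in 45 libraries and for Gbp10 in 44, against 20 for Gbp4, 14 for Gbp7 and 0 to 7 for the other 6 members. The separate values of Gbp6 and Gbp10 are therefore uncertain, and they are also given below as a sum.

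Promoter sequences were examined for letters that match the ISRE and GAS elements named above. RefSeq windows of 300 bases, from 250 before to 50 after the start, were found for 5 of the 10 members, all on chromosome 3, with a second start listed for Gbp3. They were searched on both strands for the ISRE core, GAAA, any 2 bases and GAAA, which reads as TTTC, any 2 bases and TTTC on the opposite strand, and for the GAS core TTCNNNGAA, which reads the same on both strands. Each stretch below runs 5′ to 3′ on the plus strand of GRCm38.p6, from 250 bases before the start to the end of the motif nearest to the start. Capitals mark the motif matches.

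Gbp5 chr3:142496684-142496890: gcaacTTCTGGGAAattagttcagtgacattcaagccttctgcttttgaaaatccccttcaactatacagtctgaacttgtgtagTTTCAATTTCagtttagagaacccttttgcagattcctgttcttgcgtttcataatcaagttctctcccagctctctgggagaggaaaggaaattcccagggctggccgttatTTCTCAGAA
Gbp7 chr3:142530086-142530292: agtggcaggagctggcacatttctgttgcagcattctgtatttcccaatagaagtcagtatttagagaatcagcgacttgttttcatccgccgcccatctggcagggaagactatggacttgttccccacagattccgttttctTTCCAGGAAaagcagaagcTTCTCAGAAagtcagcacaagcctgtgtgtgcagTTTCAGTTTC
Gbp3 chr3:142559794-142560014: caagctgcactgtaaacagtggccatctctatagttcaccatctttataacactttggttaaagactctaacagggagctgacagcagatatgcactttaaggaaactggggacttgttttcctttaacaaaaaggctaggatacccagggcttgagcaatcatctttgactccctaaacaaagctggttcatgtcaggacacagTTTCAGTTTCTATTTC
Gbp2b chr3:142594597-142594719: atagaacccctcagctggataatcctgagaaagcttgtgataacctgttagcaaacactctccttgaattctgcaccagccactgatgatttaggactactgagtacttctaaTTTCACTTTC
Gbp2 chr3:142620413-142620613: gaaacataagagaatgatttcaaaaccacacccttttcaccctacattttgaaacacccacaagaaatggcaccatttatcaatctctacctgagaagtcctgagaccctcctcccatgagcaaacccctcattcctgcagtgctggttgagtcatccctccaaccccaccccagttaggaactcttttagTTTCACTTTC

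All 5 genes had an ISRE core match in the windows shown, each read as TTTC repeats on the plus strand, and the second window of Gbp3 (chr3:142560106-142560405) had 0 matches of either motif. Gbp3 had a pair of matches that overlap, in its run of 3 TTTC-type repeats, from -45 to -30 relative to the start. The match ended at -50 in Gbp2, -44 in Gbp7, -128 in Gbp2b and -156 in Gbp5. GAS cores were found in Gbp5, with first bases at -245 and -52 from the start, and in Gbp7, at -106 and -87. Over 32851 RefSeq windows of the same length, 3.443% held the ISRE core, 8.298% the GAS core and 0.454% both. A match of letters is a description and not a measured binding site. The stretch of Gbp2 overlapped 12 exon bases of GENCODE, and that of Gbp5 lay within its annotated gene, outside exons.

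**Figure D1:**
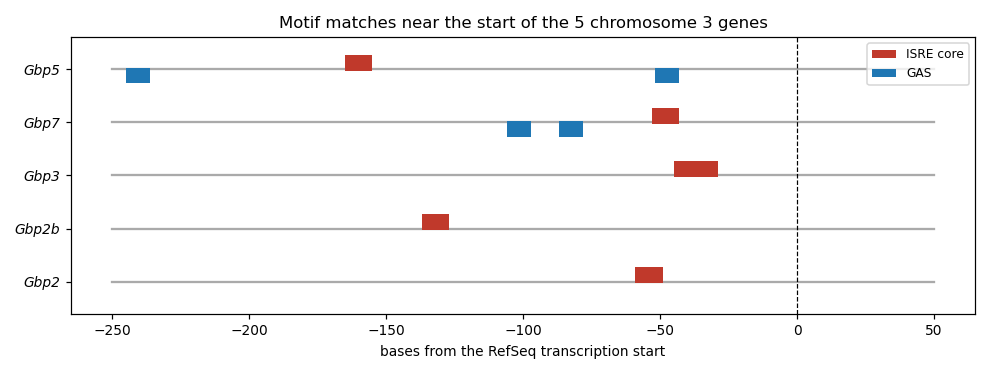
Positions of ISRE core matches (red) and GAS core matches (blue) in the RefSeq promoter windows of Gbp5, Gbp7, Gbp3, Gbp2b and Gbp2; the x axis is the distance from the start site in bases, from 250 before to 50 after. Each of the 5 genes has an ISRE match between -165 and the start, and Gbp5 and Gbp7 also have GAS matches.

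Total counts per library ran from 22682491 to 36279774 over 45 libraries, of which 44 could be placed in a group. Il10, the deleted gene, had 10 counts over the 8 wild-type libraries and 0 in every knockout library. Colon markers such as Cdx2 and Hoxb13 were above 0 in all libraries. Genes of the pancreatic acinar cell, which makes digestive enzymes, summed to more than 1000 TPM in 8 of the 44 grouped libraries, and the counts below were also made without them. They were wild-type replicate 5, knockout vehicle replicates 1, 3 and 6, 30 mg/kg replicates 1, 4 and 9, and anti-p40 replicate 5. TPM is a transcript level corrected for gene length and depth. Levels of the 9 colon markers differed between groups. In knockout vehicle against wild type, 4 were higher and 3 lower at an edgeR adjusted p under 0.05. Of all genes tested, 25.2% were higher and 24.1% lower. Hoxd13 had means of 11.4 TPM in knockout vehicle and 52.0 TPM in wild type. With anti-p40, 2 of the colon markers were higher and 0 lower (8.35% and 8.32% of all genes). Their sums were 5005 to 6724 TPM against 3205 to 4574 TPM with vehicle. Whether the sampled site or its cells differed was not tested. The tissue was not sorted, so fewer cells of a type and less RNA per cell cannot be told apart.

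In the wild-type colon the family was carried by Gbp2 and Gbp2b. The summed level of the 10 members was 75.9 ± 13.6 TPM (SD, n = 8), and this pair made up 73.4% of it on average. Gbp2 stood at 28.6 ± 6.38 TPM and Gbp2b, formerly named Gbp1, at 27.5 ± 6.11 TPM, and Gbp2 was the higher of them in 7 of 8 libraries. They were followed in order of mean level by Gbp7, Gbp3, Gbp4, Gbp8, Gbp9, Gbp5, Gbp6 and Gbp10. Between neighbours in this order the ranges of TPM overlapped, except from Gbp2b to Gbp7 and from Gbp5 to Gbp6. Compared within each library, Gbp3 was above Gbp4 in 8 of 8, and Gbp6 above Gbp10 in 5 of 8. At the bottom, Gbp10 was listed at 0 in 1 library and reached 1.24 TPM in another. The places of Gbp6 and Gbp10 are uncertain, as both share most of their sequence with Gm43302, itself at 1.29 ± 0.39 TPM.

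The order differed in the knockout colon. Gbp2b was above Gbp2 in 10 of 10 vehicle libraries, 9 of 9 at 30 mg/kg, 7 of 7 at 10 mg/kg, 5 of 5 day 77 vehicle libraries and 5 of 5 with anti-p40. Gbp4, in position 5 in wild type, took position 3 in knockout vehicle and was below Gbp2 in 10 of 10 of those libraries. The ranges of all neighbours in the knockout vehicle order overlapped. Within libraries, Gbp3 was above Gbp5 and Gbp5 above Gbp10 in 10 of 10, and Gbp8 above Gbp3 in 4 of 10. The summed level was 422 ± 203 TPM in knockout vehicle (n = 10), 389 ± 126 at 30 mg/kg (n = 9) and 606 ± 217 at 10 mg/kg (n = 7). In the day 77 cohort, whose TPM were tabulated separately, it was 378 ± 136 with vehicle and 129 ± 46.2 with anti-p40 (n = 5 each). Gbp2 and Gbp2b together still made up 66.6% to 73.1% of the sum on average in these 5 groups.

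**Figure D2:**
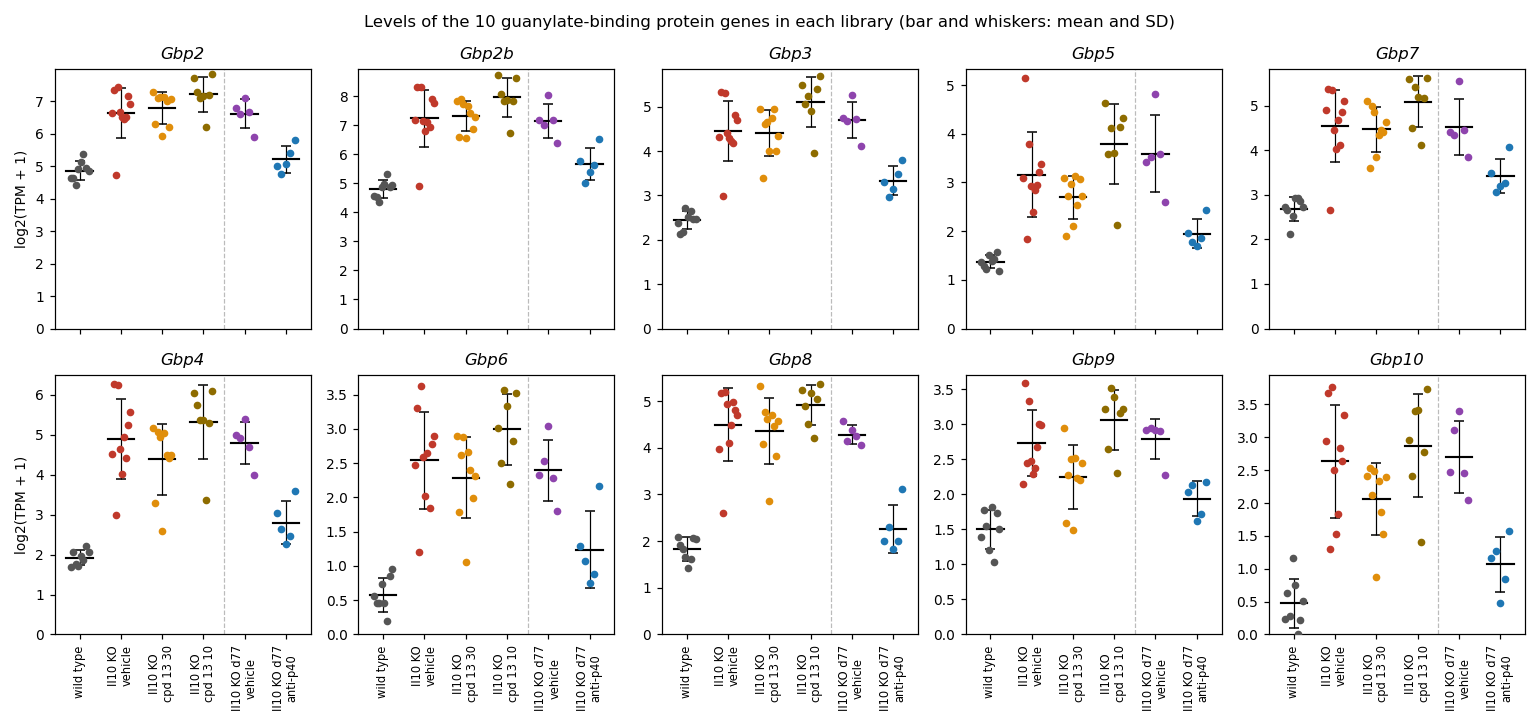
Level of each of the 10 members as log2(TPM + 1) on the y axis, with 1 point per library in the 6 groups on the x axis and bars for the mean and SD; "cpd 13 30" and "cpd 13 10" are compound 13 at 30 and 10 mg/kg. The wild-type mean is the lowest in every panel (Gbp2b 27.5 TPM against 178 TPM in knockout vehicle), and the anti-p40 mean lies below that of day 77 vehicle.

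The first comparison asked how the knockout colon given vehicle differed from the wild type. All 10 members were higher in the knockout, by 3.82-fold (Gbp9) to 15.0-fold (Gbp10). Their median log2 fold change was 2.91, against -0.01 over all 16435 genes tested. With edgeR's quasi-likelihood test, 10 of 10 passed an adjusted p under 0.05 as higher, and 25.2% of all genes tested did so. The TPM ranges of the groups did not overlap for 7 members, which was the case in this direction for 1.95% of genes.

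The prenylated members Gbp2b, Gbp2 and Gbp5 all rose. Gbp2b ranged over 19.4, 28.3 and 38.8 TPM (lowest, median and highest) in wild type and over 29.3, 142 and 321 TPM in knockout vehicle. It rose by 2.92 ± 0.36 (SE) on the log2 scale, 7.59-fold, with an edgeR adjusted p of 1.41e-05. The wild-type range was exceeded by 9 of its 10 knockout values. Gbp2, which restricts the growth of Toxoplasma in cells, ran over 20.45, 28.4 and 40.4 TPM in wild type and over 25.6, 99.2 and 170 TPM in the knockout. Its log2 fold change was 2.14 ± 0.28 (4.40-fold, edgeR adjusted p 2.55e-05), with 9 of 10 libraries above the wild-type range. Gbp5, which promotes assembly of the NLRP3 inflammasome, was a minor member in wild type at 1.28, 1.61 and 1.96 TPM and stood at 2.59, 7.11 and 34.3 TPM in the knockout. All 10 knockout libraries exceeded all wild-type libraries for Gbp5, and the change was 2.89 ± 0.42 on the log2 scale (edgeR adjusted p 5.31e-05).

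The other members of the chromosome 3 cluster are Gbp3 and Gbp7. Gbp3 ran over 3.36, 4.57 and 5.61 TPM in wild type and 6.90, 19.5 and 39.45 TPM in the knockout, without overlap, and rose by 2.57 ± 0.28 on the log2 scale (edgeR adjusted p 5.01e-06). Gbp7, which helps to assemble the NADPH oxidase on microbial vacuoles, ran over 3.32, 5.64 and 6.65 TPM and over 5.30, 26.3 and 40.6 TPM. Its change was 2.36 ± 0.30 (edgeR adjusted p 1.58e-05), and 9 of 10 knockout libraries were above the wild-type range.

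On chromosome 5, the 3 overlapping genes moved by unequal amounts. Gbp4, reported to restrain the interferon regulator IRF7, lay at 2.22, 2.78 and 3.68 TPM in wild type and at 6.99, 26.7 and 76.6 TPM in the knockout. Its log2 change of 3.84 ± 0.41 (14.3-fold) had an edgeR adjusted p of 3.95e-06. Gbp8 lay at 1.67, 2.68 and 3.27 TPM and at 5.04, 26.1 and 35.8 TPM, and had the lowest adjusted p of the members (3.42 ± 0.32, edgeR adjusted p 1.36e-06). Gbp9, which is recruited to parasite vacuoles, lay at 1.04, 1.88 and 2.51 TPM and at 3.44, 4.99 and 11.0 TPM, a change of 1.93 ± 0.26 (edgeR adjusted p 2.48e-05). For each of these 3 genes, no knockout library fell within the wild-type range.

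Gbp6 and Gbp10, which take part in defence against intracellular bacteria, had the lowest separate values of the members in wild type. Gbp6 had 0.14, 0.42 and 0.94 TPM in wild type and 1.3, 5.13 and 11.3 TPM in the knockout. Gbp10 had 0, 0.315 and 1.24 TPM in wild type and 1.45, 5.69 and 12.6 TPM in the knockout. Their log2 fold changes were 3.63 ± 0.42 and 3.91 ± 0.56, with edgeR adjusted p of 8.03e-06 and 5.19e-05, and neither overlapped. Summed over both genes, which avoids dividing reads between them, the change was 3.72 ± 0.42 (edgeR adjusted p 6.28e-06). With Gm43302 added to the sum it was 4.05 ± 0.41 (edgeR adjusted p 2.27e-06). Gm43302 alone held more of the estimated counts, 16875 over the knockout vehicle libraries against 4375 for Gbp6 and 2364 for Gbp10. Over the wild-type libraries Gm43302 held 787, against 305 for Gbp6 and 132 for Gbp10.

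All 10 calls held when any 1 library was left out, when the acinar-rich libraries were left out (median log2 fold change 3.21, with Gbp10 at 4.50) and under each other setting tried. The acinar-rich set includes knockout vehicle replicate 3, the lowest of its group in the members. Of the calls over all genes, 51.1% were higher in edgeR. In limma on log2(TPM + 1), where the median of all genes was -0.16, 26.5% were higher, and the members' log2 fold changes were then 1.23 to 2.97 with all 10 called.

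Immune cell markers moved with the family, and the part of cell numbers in these changes was not tested. Of all genes tested, 25.2% were higher and 24.1% lower. Of 10 macrophage markers, 8 were higher and 1 lower in the knockout, and their summed level was 151 to 210 TPM in wild type and 210 to 513 TPM in knockout vehicle. Of 10 T and NK cell markers, 9 were higher, with sums of 7.20 to 29.9 and 33.8 to 109 TPM. Neutrophil markers summed to 195 to 299 and 259 to 5261 TPM, and all 4 that could be tested of 7 were higher. Ly6g made up nearly all of the wild-type sum (median 236 TPM, against 0.69 TPM for S100a8 and 0.35 TPM for S100a9), and in knockout vehicle the medians were 754 TPM for Ly6g and 49.6 TPM for S100a8. Smooth muscle markers were lower in 7 of 7, with sums of 3770 to 8698 TPM in wild type and 237 to 6255 TPM in the knockout. B and plasma cell markers were higher in 5 of 7 (295 to 418 and 651 to 2460 TPM), led by the plasma cell genes Jchain (2.31 on the log2 scale) and Mzb1 (2.01). Enteric neuron and glia markers were lower in 4 of 6 (30.7 to 79.7 and 3.39 to 52.6 TPM). Of 7 epithelial markers, 6 were higher (8653 to 10408 and 9067 to 16347 TPM). In a wild-type library, up to 2 of the 10 T and NK cell markers and 4 of the 7 neutrophil markers were at 0, and no library had a macrophage marker at 0.

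**Figure D3:**
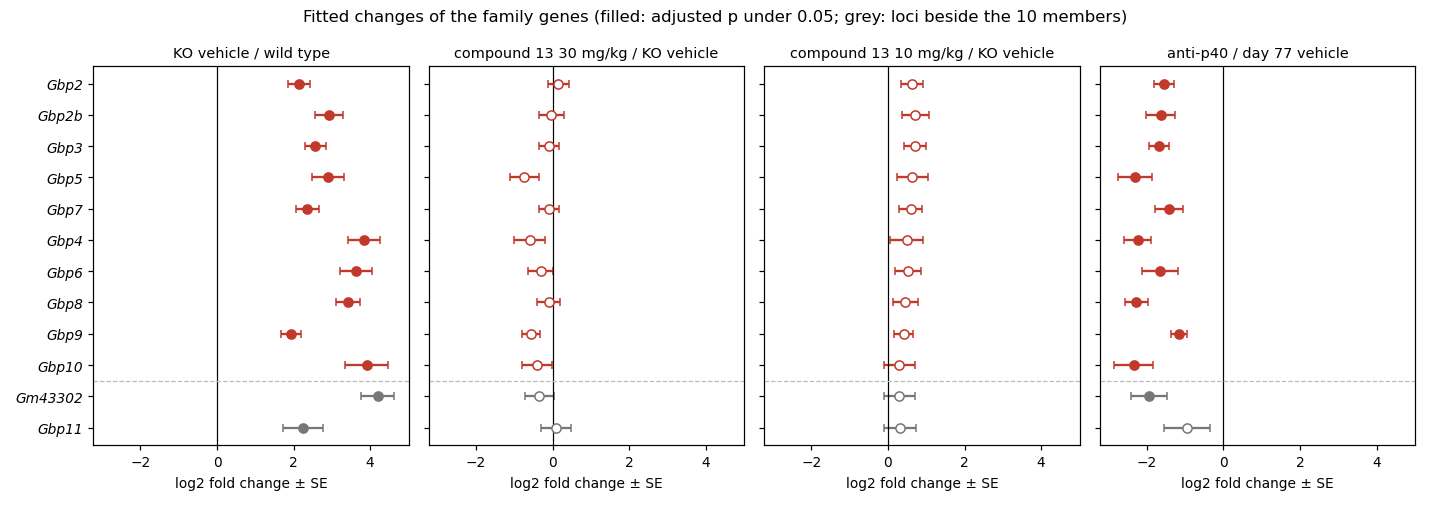
Log2 fold change with its SE (x axis) for the 10 members, Gm43302 and Gbp11 (y axis) in 4 comparisons. They are knockout vehicle against wild type, compound 13 at 30 and at 10 mg/kg against vehicle, and anti-p40 against day 77 vehicle. Filled points have an edgeR adjusted p under 0.05. Members lie between 1.93 and 3.91 in the knockout and between -2.34 and -1.17 with anti-p40, all filled, and none is filled for compound 13.

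The knockout libraries differed widely among themselves, and the members moved together. Over the 26 knockout libraries of the first cohort, Pearson's r of log2 levels between the 45 pairs of members ran from 0.64 to 0.98 (median 0.85), and after removing group means from 0.67 to 0.98. These values share libraries and depth and are a description. Knockout vehicle replicate 3 was lowest, with a summed member level of 88.8 TPM, and it alone of the 10 vehicle libraries had members, 3 of 10 (Gbp2, Gbp2b and Gbp7), within the wild-type range. Its marker sums were 6255 TPM for smooth muscle, 259 TPM for neutrophils, 235 TPM for macrophages and 51.8 TPM for T and NK cells. Without this library the median member change was 3.03, with all 10 called. At the other end, knockout vehicle replicate 2 held 321 TPM of Gbp2b, 34.3 TPM of Gbp5 and 12.1 TPM of Ifng, with a neutrophil sum of 5261 TPM.

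**Figure D4:**
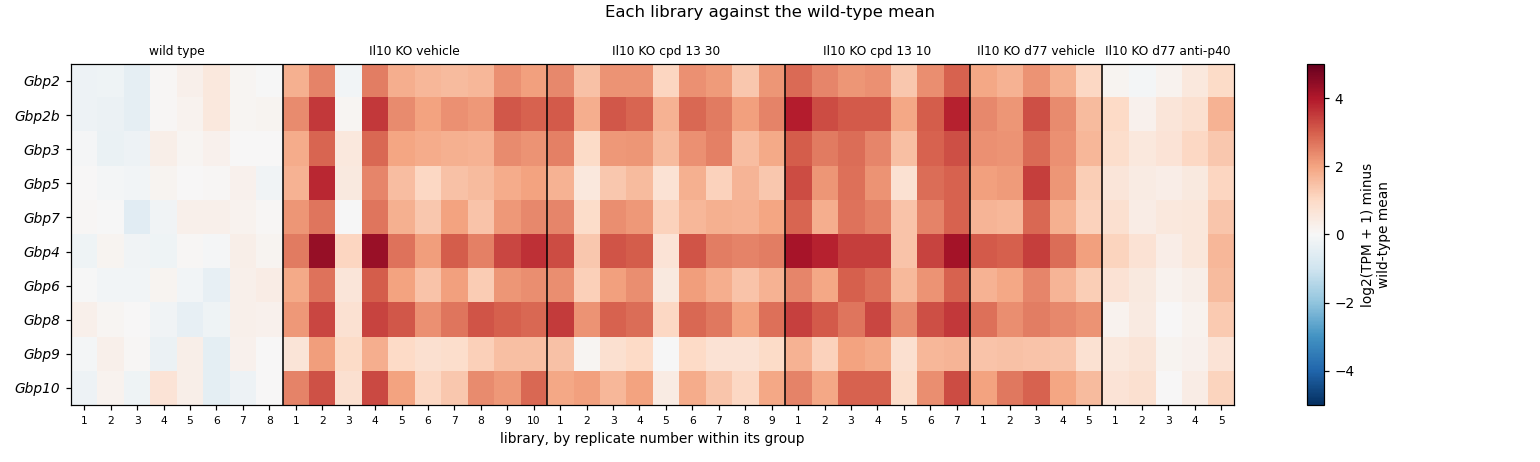
Heat map of the 10 members (rows) in the 44 grouped libraries (columns, by group and replicate number; "cpd 13 30" and "cpd 13 10" are compound 13 at 30 and 10 mg/kg), coloured by log2(TPM + 1) minus the wild-type mean of that member. Knockout vehicle replicate 3 (summed level 88.8 TPM) is the palest of its group, and most anti-p40 cells are paler than those of their vehicle.

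Genes with a closely similar pattern over the same 26 libraries were interferon-induced genes. Against the mean standardized level of the members, Pearson's r was 0.968 for Irgm1, 0.96 for Tgtp2, 0.958 for Igtp and 0.953 for each of Tgtp1, Gm43302 and Gm4951. It was 0.95 for Ifit2. Since Gm43302 shares most of its sequence with Gbp6 and Gbp10, which enter the member mean, its value is not independent of them. Irgm1, Tgtp1, Tgtp2, Igtp and Gm4951 are immunity-related GTPases. Irf1 followed less closely, with r of 0.868 (Spearman's rho 0.854), and Ifng itself had r of 0.573 (rho 0.679) at low levels. In wild type, Ifng had 2 counts over 8 libraries, and in knockout vehicle it ran over 0.27, 1.21 and 12.1 TPM.

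Other genes of the pathway rose in the knockout, where 25.2% of all genes tested were higher. Of 11 tested genes of the interferon gamma signal, 8 were higher and 0 lower, among them Nlrc5, the activator of MHC class I genes (4.48 on the log2 scale), and Irf8 (1.52). Irf1 was higher by 1.25 ± 0.18. All 9 tested immunity-related GTPases were higher, with a median of 5.96. Those with the smallest p were Tgtp1 (6.50), Gm12250 (5.96) and Tgtp2 (4.77). Of 13 genes of the type I interferon response, 12 were higher, including Isg15 (2.94), Rsad2 (2.26) and Irf7 (1.13). Among 4 tested genes of the interleukin 12 axis, 3 were higher, namely Il12rb1 (2.68), Tbx21 (1.83) and Stat4 (1.56). Il12b, which encodes p40, had 7 counts over the wild-type libraries and 128 over knockout vehicle.

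Genes that act with or beside GBP proteins moved less uniformly. Of 9 inflammasome and pyroptosis genes outside the family, 7 were higher, among them Zbp1 (3.86), Casp4 (1.74) and Pycard (0.94), and Il18, named after its value was seen, was lower (fell by 0.83). Of 10 autophagy genes that load GBP proteins onto vacuoles, 2 were higher and 4 lower, where 25.2% of all genes were higher and 24.1% lower, with Gabarapl1 at -0.70, Atg7 at -0.34 and Atg16l1 at -0.27. Of 6 prenylation enzymes, Pggt1b was higher (0.32) and Fnta lower (-0.25). Among 8 other large GTPases, 4 were higher and 1 lower, with Gm4070 at 3.81, Mx2 at 1.86 and Atl2 at 0.41.

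The second question was whether compound 13 altered these levels in the knockout. At 30 mg/kg, 0 of 10 members were called against vehicle, and 0.0% of the 16948 genes tested were called in either direction. Over all genes, edgeR gave 1004 at an unadjusted p under 0.05, DESeq2 called 1 gene and limma voom 0. Of the members, 9 estimates were below 0. Only Gbp9 had an unadjusted p under 0.05, with a log2 fold change of -0.56 (95% interval -1.01 to -0.10, edgeR adjusted p 0.835), and 3.8% of genes had such a p in this direction.

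Apart from those of Gbp9 and Gbp5, the intervals at 30 mg/kg left room for differences in either direction. Gbp2 ran over 60.3, 133 and 154 TPM (log2 difference 0.15, interval -0.37 to 0.68), and Gbp2b over 92.4, 170 and 239 TPM (-0.03, -0.68 to 0.61). Gbp3 had a difference of -0.09 (-0.62 to 0.44), Gbp7 of -0.09 (-0.62 to 0.44), Gbp8 of -0.10 (-0.71 to 0.50) and Gbp6 of -0.31 (-0.95 to 0.33). Larger negative estimates were seen for Gbp5 at -0.73 (-1.47 to 0.00), Gbp4 at -0.60 (-1.4 to 0.20) and Gbp10 at -0.41 (-1.16 to 0.35). The ranges overlapped for each of these 3. Gbp5 lay at 2.74, 5.64 and 7.78 TPM against 2.59 to 34.3 TPM with vehicle, and without knockout vehicle replicate 2, the library at 34.3 TPM, its difference was -0.25. The median member difference was -0.21, with -0.11 without knockout vehicle replicate 2 and -0.70 without the acinar-rich libraries, and 0 members were called in each case. The acinar-rich set includes knockout vehicle replicate 3, the lowest library in the members. Which of the left-out libraries moved the median was not tested.

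At 10 mg/kg all 10 estimates were above 0, and 0 of 10 were called (0.0059% of genes were called as higher). The median log2 difference was 0.55, from 0.29 (Gbp10, interval -0.50 to 1.09) to 0.71 (Gbp2b, 0.03 to 1.4; Gbp3, 0.15 to 1.27). It was 0.29 without the acinar-rich libraries, among them knockout vehicle replicate 3, and 0.40 without 10 mg/kg replicate 7. An unadjusted p under 0.05 was found for Gbp2 (0.63, 0.07 to 1.19, edgeR adjusted p 0.419) and Gbp3 (edgeR adjusted p 0.375), and 5.32% of genes had such a p in this direction. Gbp2b and Gbp7 (0.59, 0.02 to 1.16) had unadjusted edgeR p of 0.0515 and 0.0523, although their intervals lay above 0. Gbp2b lay at 106, 231 and 425 TPM and Gbp5 at 3.38, 16.4 and 23.7 TPM, overlapping with vehicle. DESeq2 called 39 genes higher and 42 lower at this dose, with 0 members among them.

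Set against 10 mg/kg, the estimates at 30 mg/kg were below 0 for all 10 members, and 0 of 10 passed (0.0% of genes). The median difference was -0.77, from -0.48 (Gbp2) to -1.37 (Gbp5). Unadjusted p fell under 0.05 for 7 members, against 7.91% of genes in this direction. The lowest adjusted p were those of Gbp9 (-0.96 ± 0.25, edgeR 0.0992) and Gbp5 (-1.37 ± 0.41, edgeR 0.136). DESeq2 called both, with adjusted p of 0.0193 and 0.0312, and called 1.33% of genes as lower (225 of 16948). Without knockout vehicle replicate 2, which enters the same fit, edgeR called Gbp5 alone (adjusted p 0.0475). Summed smooth muscle markers had medians of 2831 TPM at 30 mg/kg, 862 TPM at 10 mg/kg and 1935 TPM with vehicle, and their part in the difference was not tested.

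Both compound 13 groups stood above wild type, with which the vehicle comparison shares its control libraries. At 30 mg/kg, 10 of 10 members were higher (19.6% of genes), by 1.37 (Gbp9) to 3.51 (Gbp10) on the log2 scale, with edgeR adjusted p of at most 8.01e-05. Ranges did not overlap for 8 members (1.72% of genes), with Gbp9 and Gbp10 the exceptions. At 10 mg/kg, 10 of 10 were higher (24.0% of genes), by 2.33 (Gbp9) to 4.32 (Gbp4), with edgeR adjusted p of at most 6.94e-07, and all 10 ranges stood apart (3.98% of genes). In limma on log2(TPM + 1), 15.4% and 21.5% of the calls over all genes were higher at 30 and 10 mg/kg, against 58.6% and 49.6% in edgeR. The median of all genes was then -0.25 and -0.26, and all 10 members were called higher at both doses.

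The third question was what an antibody to p40 did in the day 77 cohort. All 10 members were lower with anti-p40 than with vehicle, by 1.17 (Gbp9) to 2.34 (Gbp10) on the log2 scale. The median was -1.68, against 0.01 over 16470 genes. With edgeR, 10 of 10 passed as lower, and 8.32% of genes did so. Ranges did not overlap for 7 members (4.19% of genes), with Gbp2b, Gbp6 and Gbp7 as the exceptions.

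Among the prenylated members, Gbp2 stood at 108, 96.45, 137, 99.7 and 58.2 TPM in the 5 vehicle libraries and at 31.1, 26.2, 32.1, 40.9 and 54.6 TPM in the 5 anti-p40 libraries. It fell by 1.55 ± 0.27 on the log2 scale (edgeR adjusted p 0.00431). The highest treated library, replicate 5, came close to the lowest vehicle library. Gbp2b stood at 146, 129, 260, 143 and 81.9 TPM with vehicle and at 54.2, 31.2, 41.4, 48.0 and 91.4 TPM with anti-p40 (-1.64 ± 0.37, edgeR adjusted p 0.0141). Here anti-p40 replicate 5 exceeded vehicle replicate 5. Gbp5 was at 9.65, 10.4, 27.2, 11.1 and 5.09 TPM with vehicle and 2.92, 2.42, 2.23, 2.64 and 4.43 TPM with anti-p40, a log2 fold change of -2.31 ± 0.45 (edgeR adjusted p 0.00784). Without vehicle replicate 3, the library at 27.2 TPM, the log2 fold change of Gbp5 was -1.68 (edgeR adjusted p 0.002).

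Gbp3 was at 25.6, 24.5, 37.7, 25.4 and 16.3 TPM with vehicle and 8.87, 6.78, 7.79, 10.2 and 12.9 TPM with anti-p40, without overlap (-1.69 ± 0.27, edgeR adjusted p 0.00263). Gbp7 was at 20.1, 19.3, 45.6, 20.98 and 13.5 TPM and 10.3, 7.41, 8.21, 8.65 and 15.7 TPM (-1.42 ± 0.37, edgeR adjusted p 0.024), and again anti-p40 replicate 5 overlapped. In the chromosome 5 cluster, Gbp8 had the lowest adjusted p of the members. Gbp8 was at 22.8, 16.6, 19.8, 18.0 and 15.7 TPM with vehicle and 3.03, 3.92, 2.56, 3.02 and 7.70 TPM with anti-p40 (-2.27 ± 0.30, edgeR adjusted p 0.00107). Gbp4 was at 30.6, 29.0, 41.1, 24.9 and 14.8 TPM and 7.23, 5.20, 3.83, 4.54 and 11.1 TPM (-2.24 ± 0.36, edgeR adjusted p 0.00275). Gbp9 showed the smallest fall, from 6.52, 6.73, 6.54, 6.47 and 3.84 TPM to 3.07, 3.4, 2.07, 2.30 and 3.53 TPM (-1.17 ± 0.20, edgeR adjusted p 0.00432).

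For Gbp6 the vehicle libraries held 4.03, 4.77, 7.20, 3.87 and 2.48 TPM and the anti-p40 libraries 1.45, 1.11, 0.69, 0.85 and 3.5 TPM (-1.67 ± 0.47, edgeR adjusted p 0.0336). For Gbp10 they held 4.57, 7.67, 9.60, 4.47 and 3.11 TPM and 1.24, 1.41, 0.40, 0.79 and 1.98 TPM (-2.34 ± 0.51, edgeR adjusted p 0.012). Summed, the pair fell by 1.89 ± 0.48 (edgeR adjusted p 0.0223), and with Gm43302 by 1.92 ± 0.47 (edgeR adjusted p 0.0196). Anti-p40 replicate 5, the library highest in Gbp6, also held 10329 TPM of acinar genes. Without it, the change of Gbp6 was -2.27 (edgeR adjusted p 0.00346), the median of the members was -2.11 and all 10 were called.

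Some of these calls depended on the setting. Without a count filter, Gbp2b (adjusted p 0.0503), Gbp7 (0.079) and Gbp6 (0.0918) were no longer called by edgeR. Leaving out 1 library at a time, Gbp6 lost its call in 7 of 10 cases (adjusted p up to 0.0836) and Gbp7 in 4 (up to 0.0645). Anti-p40 levels did not all reach wild type: in anti-p40 replicates 1 to 5, respectively 3, 2, 5, 4 and 0 of the 10 members were at or below the highest wild-type library. This last count sets libraries of separately tabulated cohorts side by side and was not tested.

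Many genes of the interferon gamma pathway were lower as well, where 8.32% of all genes tested were lower. Of 12 genes of the interferon gamma signal, 7 were lower, with Nlrc5 at -2.76 and Irf8 at -0.73. Irf1 fell by 0.75 ± 0.21 (edgeR adjusted p 0.0352). Ifng stood at 1.52, 0.56, 4.35, 1.83 and 0.34 TPM with vehicle and at 0.11, 0, 0, 0.06 and 0.65 TPM with anti-p40 (-3.47 ± 1.05, edgeR adjusted p 0.0436). All 8 tested immunity-related GTPases were lower (median -2.33), among them Gm12250 (-2.19), Igtp (-2.19) and Gm4951 (-3.51). Of 13 genes of the type I interferon response, Stat2 alone was called (-0.76, edgeR adjusted p 0.0196), a share near that of all genes. Isg15 had -1.17 with an edgeR adjusted p of 0.0565.

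Of the interleukin 12 axis, 3 of 4 tested genes were lower, Il12rb1 (-1.41), Tbx21 (-1.60) and Stat4 (-1.51). Of 9 inflammasome and pyroptosis genes, 6 were lower, including Gsdmd, the pore-forming executor (-0.99), Zbp1 (-1.93) and Pycard (-0.73). Of 10 loading genes, 2 were higher, Gabarapl1 (0.77) and Atg7 (0.32), where 8.35% of all genes were higher, and 0 of 6 prenylation enzymes were called. Among other large GTPases, 1 of 8 was lower, Gm4070 (-2.63), where 8.32% of all genes were lower.

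Cell markers moved with these changes too, and their part was not tested. Of all genes tested, 8.35% were higher and 8.32% lower. Macrophage markers were lower in 7 of 10 and higher in 1, with sums of 414 to 552 TPM with vehicle and 207 to 248 TPM with anti-p40. T and NK cell markers were lower in 8 of 10 (41.9 to 84.6 and 10.4 to 28.7 TPM). Neutrophil markers were lower in 3 of 4 tested (529 to 4387 and 219 to 949 TPM), and Ngp, a granule gene, was at 0 in all 5 anti-p40 libraries. Of the neutrophil sum, Ly6g reached 943 TPM with anti-p40, and its own estimate did not pass (-0.84, edgeR adjusted p 0.204). B and plasma cell markers were lower in 2 of 7, Jchain (-1.44) and Mzb1 (-1.13), with sums of 1077 to 1694 and 455 to 828 TPM. Enteric neuron and glia markers were higher in 2 of 6 (6.59 to 20.1 and 27.6 to 51.3 TPM). Smooth muscle markers were higher in 6 of 7 (929 to 2799 and 2970 to 7473 TPM), and 1 of 7 epithelial markers was lower.

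Whether the effect of anti-p40 differed from that of compound 13 at 30 mg/kg was tested directly, each against the vehicle of its own cohort. Treatment and cohort cannot be told apart in this contrast. All 10 differences were below 0, with a median log2 value of -1.60. An unadjusted p under 0.05 was seen for 9 members, against 9.33% of genes in this direction, and 3 were called by edgeR, where 1.2% of 18021 genes were called as lower. They were Gbp8 (-2.17 ± 0.47, adjusted p 0.00891), Gbp2 (-1.70 ± 0.42, adjusted p 0.0226) and Gbp3 (-1.60 ± 0.41, adjusted p 0.0322). The other 7 ran from -0.61 (Gbp9, adjusted p 0.433) to -1.93 (Gbp10, adjusted p 0.17). The call of Gbp8 held with any 1 library left out (adjusted p at most 0.0286). The number called varied between 1 and 5: without knockout vehicle replicate 2, Gbp2b (adjusted p 0.0494) and Gbp5 (0.0125) joined, and without day 77 vehicle replicate 3 or anti-p40 replicate 1, 2 or 3, 1 remained. Without the acinar-rich libraries 2 were called (Gbp3 had an adjusted p of 0.0887).

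A few further genes of the family region complete the account. Gbp11, annotated as a polymorphic pseudogene on the minus strand (chr5:105323042-105346472), had 0.28 ± 0.23 TPM in wild type (n = 8) and 1.12 ± 0.75 TPM in knockout vehicle (n = 10). It rose by 2.25 ± 0.52 on the log2 scale (edgeR adjusted p 0.00196), and with anti-p40 its estimate was -0.96 ± 0.60 (edgeR adjusted p 0.297). Gm43302 changed by 4.2 ± 0.44 in the knockout (edgeR adjusted p 3.31e-06) and by -1.93 ± 0.47 with anti-p40 (edgeR adjusted p 0.0193). The pseudogene Gbp2-ps was at 0 in all 45 libraries. The authors' deposited tables of their own comparisons were read at an adjusted p under 0.05. There, 10 members were higher in the knockout (log2 fold change 1.97 to 4.02), 0 were called at either dose of compound 13, and 10 were lower with anti-p40 (-2.36 to -1.18). The share of all genes passing in those tables was not computed. In the edgeR fits above, 25.2% of genes were higher in the knockout and 8.32% lower with anti-p40.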

How the data were processed

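RNA from 45 distal colon libraries was column-purified and libraries were made by poly(A) enrichment, per the labels. STAR 2.7.8a, RSEM 1.3.3, cutadapt 3.7, DESeq2 1.30.1 and the build mm10 are named in the submitters' processing notes, with no roles. Not given in the sources used here are the annotation, strandedness and the handling of multiply mapped reads. What the authors deposited are estimated counts by gene, not normalized, and TPM, in 1 table of each per cohort. Their tables of 4 comparisons hold a log2 fold change, a p-value and an adjusted p-value, per the file headers.

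Of 50600 identifiers, 50376 matched GENCODE M21 and 224 did not. Libraries held 22682491 to 36279774 counts, a count of 0 allows up to 3 counts, and such limits cover counting error only. Library pairs within a group differed beyond sampling noise (chi-square of 7.72 or more for each degree of freedom), and none were merged.

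Rounded estimated counts were tested with edgeR 4.0.16 (robust quasi-likelihood, TMM, default filter, Benjamini-Hochberg over all genes) under R 4.3.3, calling genes at an adjusted p under 0.05. Knockout and anti-p40 comparisons used only their own groups, the compound 13 comparisons against vehicle and against each other the 3 knockout groups of the first cohort, those against wild type 4 groups and the difference of effects all 6. The library with discordant labels (30 and 10 mg/kg) entered no comparison. Intervals of 95% are estimate ± 1.96 SE. This multiple makes them somewhat narrower than the quasi-likelihood test, so an interval can leave out 0 at an unadjusted p above 0.05. On simulated counts, 72% of 2-fold and 94% of 4-fold changes were recovered for knockout against wild type (16435 genes). The shares were 69% and 82% for 30 mg/kg (16948 genes), and 64% and 88% for anti-p40 (16470 genes). False calls numbered 8, 8 and 10. Each gene was drawn independently of the others, so variation that genes share within a library was absent and these rates do not cover it. Alternatives were DESeq2 1.42.0, limma 3.58.1 (voom, and log2 of TPM plus 1 or 0.1), edgeR with RLE scaling, and no count filter or a stricter one. Gbp6 and Gbp10 were also summed, and each library was left out. Leaving out acinar-rich libraries (above 1000 TPM) and adding Gm43302 to that sum came after seeing the data.

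Members and lists were chosen with earlier results of these data known. All members are described; from each other list at most the 3 tested genes with the smallest p are named, with Ifng, Irf1, Il12b, Il10, Gbp11 and other Gbp loci whatever their values, and the 8 genes (mean of at least 1 CPM) most correlated with the members, of which 1 is not reported here. Windows of 50 bases and open reading frames came from GENCODE transcripts, promoters from RefSeq (GRCm38.p6); figures used matplotlib 3.10.9.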

Additional observations from a re-analysis of the deposited data

Results flagged for a closer look

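In 6 of 60 groups of 5 to 10 libraries (10 members by 6 groups), the highest or lowest library stood apart by Dixon's criterion, at a nominal level of 1 in 20. The members were measured in the same libraries and moved together, so the 60 are not independent. Their count was therefore not set against that level. Gbp5 reached 34.3 TPM in knockout vehicle replicate 2 and 27.2 TPM in day 77 vehicle replicate 3. Gbp7 reached 45.6 TPM in that same day 77 library. These libraries had neutrophil marker sums of 5261 and 4387 TPM. The library with the highest such sum, 10 mg/kg replicate 2 (5583 TPM), had 11.1 TPM of Gbp5, below its group median of 16.4 TPM, and the relation was not tested. In anti-p40 replicate 5, an acinar-rich library, Gbp6 reached 3.5 TPM and Gbp8 7.70 TPM. Gbp9 was lowest in day 77 vehicle replicate 5, at 3.84 TPM.

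The effect of anti-p40 minus that of compound 13 at 30 mg/kg was below 0 with an edgeR adjusted p under 0.05 for Gbp2 (-1.70), Gbp3 (-1.60) and Gbp8 (-2.17).

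The library with discordant dose labels was in no comparison, and each member stood above every wild-type library in it. It held 107 TPM of Gbp2, 132 TPM of Gbp2b, 32.3 TPM of Gbp3, 5.47 TPM of Gbp5, 22.3 TPM of Gbp7 and 21.9 TPM of Gbp4. Gbp6 stood at 6.68 TPM, Gbp8 at 25.3 TPM, Gbp9 at 7.18 TPM and Gbp10 at 7.76 TPM.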

How the results depend on the processing

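For the number of members called, 77 alternative values, with every library or without the acinar-rich ones, stayed within 1.5 times the reported count. The 1 exception was 30 against 10 mg/kg with DESeq2, at 2 members. With 1 library left out at a time, that comparison gave 0 to 1 members and the difference between anti-p40 and 30 mg/kg gave 1 to 5. For single genes, estimates against vehicle at 30 mg/kg changed sign where they lay near 0. Gbp2 was -0.21 without acinar-rich libraries, and Gbp2b was 0.18 with limma voom, 0.0741 on log2(TPM + 1) and 0.0767 on log2(TPM + 0.1). With voom, Gbp3 was 0.0311 and Gbp7 0.0573. With single libraries left out, Gbp2b ran from -0.17 to 0.11, Gbp3 from -0.21 to 0.0413, Gbp7 from -0.22 to 0.014 and Gbp8 from -0.28 to 0.0138, and at 10 mg/kg Gbp10 ran from -0.00509 to 0.49. The causes were not tested. No paired analysis was possible because replicate numbers follow the deposited order and the labels give none. Gbp6 and Gbp10 share most of their sequence, and at low TPM their separate values are the least certain of the family.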
